A study of Arabidopsis thaliana with 48 samples.

Results

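EXPB1 and EXPB2 are 2 of the beta-expansin genes of Arabidopsis thaliana, and they were chosen by their measured differences between auxin medium and control medium, which run in opposite directions. The auxin was indole-3-acetic acid (IAA). They are 2 of 13350 genes that a probe set of the array names without another gene, and each had 1 probe set. Roots of 6-day-old seedlings were compared after transfer to medium with 1 µM IAA and after transfer to control medium. Each medium was sampled at 0 h (under 5 minutes of contact), 0.5, 1, 2, 4, 8, 12 and 24 h, which gives 16 groups of 3 arrays. The labels name no genotype, ecotype or transgene. All seedlings had grown on a nylon screen over medium with sucrose in continuous light, and their roots were harvested. The labels do not say whether replicates came from separate plantings, so p-values measure the spread between these arrays.

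Expansins are wall proteins that loosen the contacts between cellulose and matrix polysaccharides at acid pH without cutting either, and so allow turgor to extend the cell. Alpha-expansins and beta-expansins are the classes with known loosening activity. Beta-expansins were first known as grass pollen allergens, and in grasses they act on the arabinoxylan-rich wall. Expansin-like genes share the fold, but no loosening activity has been established for them. In shoots auxin acidifies the wall, which is the condition in which expansins act, while in roots added auxin slows elongation and starts lateral roots.

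Values are log2 intensities as deposited, so a difference of 1 is a factor of 2 in signal. The array means lay between 7.70 and 7.71 and the lower quartiles between 6.11 and 6.29, and signals near the lower quartile are not shown to lie above background. Arrays carry no read depth, and 3 arrays a group limit the precision. In bulk roots, fewer cells that express a gene and less transcript per cell cannot be told apart. As a check of the treatment, GH3.3, an auxin-induced enzyme that conjugates IAA to amino acids, was higher at all 7 times after 0 h, by 3.94 to 6.10 on the log2 scale (limma adjusted p from 1.39e-10 to 3.07e-06). LBD29, a factor of lateral root formation, was higher at the same times by 3.45 to 4.88. GH3.3 was also raised on some control arrays. It stood at 10.9 on control 1 h replicate 1, against 7.78 and 7.85 in replicates 2 and 3. On control 0.5 h replicate 3 it stood at 9.57, against 7.53 and 7.07 in replicates 1 and 2. Probe sets were named with a gene table that does not list 8730 of the 22746, so a gene not named may still be on the array. Only 1 of 14 root markers, AT5G48940, and 2 of 16 markers of green tissue could be named. These markers thus check the tissue label only in small part. AT5G48940 had group means of 8.08 to 8.77 on IAA and 8.31 to 8.61 on control medium. The green-tissue genes RCA and LHCB4.1 spanned 7.27 to 8.37 on IAA and 7.57 to 8.20 on control medium. AT5G48940 was 0.45 higher on IAA at 24 h (limma adjusted p = 0.0221) and LHCB4.1 differed by -0.67 at 4 h (limma adjusted p = 0.0178), and the part of either in the values of EXPB1 and EXPB2 was not tested.

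EXPB1 was well expressed on control medium and was already lower on IAA at 0.5 h. At 0 h its log2 values were 9.62, 9.37 and 8.82 on IAA medium, against 9.43, 9.06 and 8.27 on control medium. The groups overlapped, and the difference was 0.36 ± 0.319 (log2, standard error of the limma fit, n = 3 arrays per group). It ranked 166th among the rises of 22746 probe sets at 0 h, above their 99th percentile of 0.32, while limma called 0% of them higher. At 0.5 h the values were 7.22, 7.40 and 7.85 on IAA, against 9.38, 8.62 and 8.43 on control medium. From then on the IAA arrays lay below the control arrays without overlap at every time sampled.

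At 1 h EXPB1 stood at 6.89, 7.66 and 7.42 on IAA, against 9.01, 8.17 and 8.70 on control medium. At 2 h it stood at 7.02, 6.71 and 7.26 on IAA, against 9.48, 9.05 and 8.16. The lowest control array at 2 h was still 0.897 above the highest IAA array. At 4 h the IAA values were 7.14, 6.93 and 6.94, against control values of 9.36, 8.87 and 9.49. At 8 h they were 7.19, 6.53 and 7.23, against 9.38, 9.47 and 9.64. This was the widest separation, with 2.15 between the nearest arrays of the media. At 12 h EXPB1 had 7.50, 7.48 and 7.68 on IAA, against 9.31, 8.83 and 9.92 on control medium. At 24 h it had 8.08, 7.34 and 8.43, against 9.52, 9.18 and 9.50, so the highest IAA array came to within 0.743 of the lowest control array.

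The difference of EXPB1, IAA minus control, was -1.32 at 0.5 h, -1.30 at 1 h, -1.90 at 2 h, -2.23 at 4 h, -2.51 at 8 h, -1.80 at 12 h and -1.44 at 24 h (log2, each ± 0.319). EXPB1 was thus 2.50-fold lower at 0.5 h, 5.71-fold lower at 8 h and 2.72-fold lower at 24 h. Of the largest change, 52.5% was present at 0.5 h, and 57.5% was present at 24 h. The change of the difference was -1.19 ± 0.452 between 0.5 and 8 h and 1.07 ± 0.452 between 8 and 24 h. Both media entered the first of these changes. Between 0.5 and 8 h the mean moved from 7.49 to 6.98 on IAA and from 8.81 to 9.49 on control medium. Against 0 h on IAA medium itself, EXPB1 had changed by -1.78 ± 0.319 at 0.5 h and by -2.29 ± 0.319 at 8 h. The 0.5 h time was also where EXPB1 ranked highest among all falls, 4th of 22746 probe sets, against 34th at 8 h and 100th at 24 h. IAA against control is the comparison that chose the gene, so these values describe it and carry no test. The share of probe sets lower on IAA without overlap was 1.44% at 0 h, 6.86% at 0.5 h, 5.4% at 1 h, 9.48% at 2 h, 17.2% at 4 h, 16.8% at 8 h, 15.3% at 12 h and 10.6% at 24 h. Of all probe sets, 44 (0.193%) were lower on IAA without overlap at all 7 times, and 8 were lower by at least 1 on the log2 scale at each of them.

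**Figure D1:**
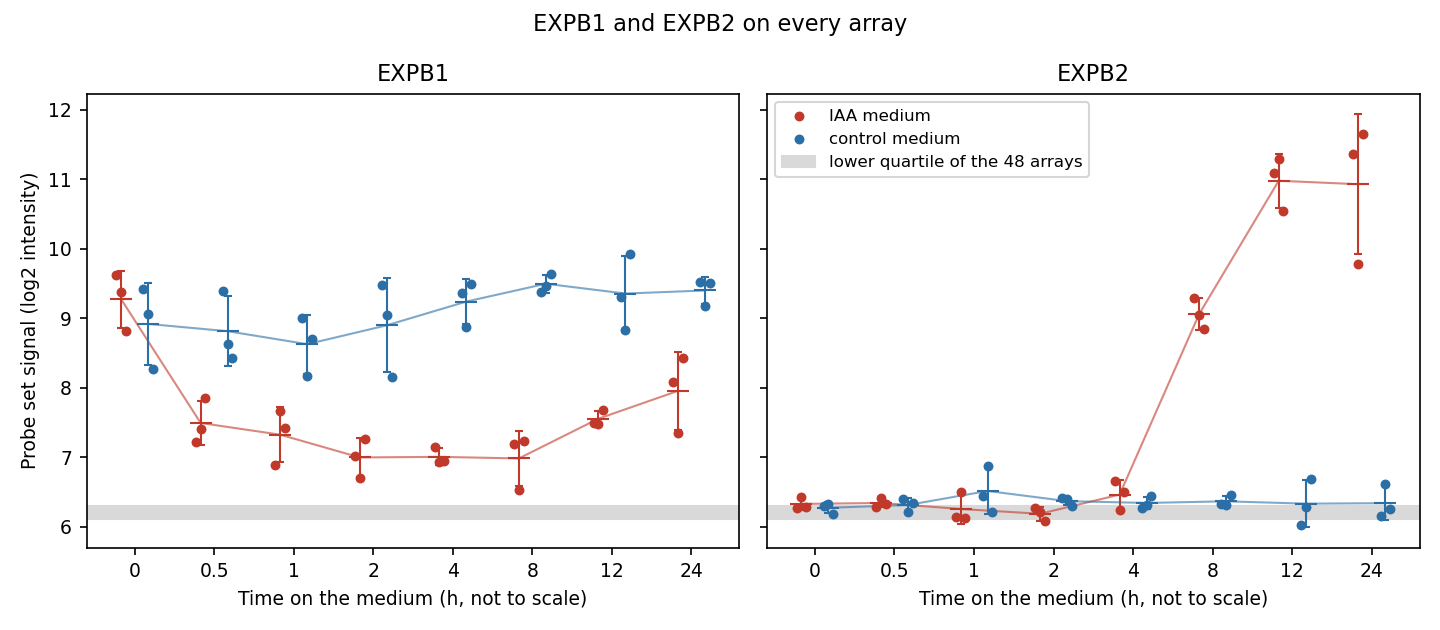
Log2 signal of EXPB1 (left) and EXPB2 (right) on every array, by time on the medium, with IAA arrays in red and control arrays in blue. Points are arrays, bars are means with the standard deviation (n = 3), and the grey band spans the lower quartiles of the 48 arrays (6.11 to 6.29). EXPB1 is lower on IAA from 0.5 h, and EXPB2 lies near the band everywhere except on IAA at 8, 12 and 24 h.

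EXPB2 was near the lower quartile of the arrays until 4 h on either medium, and its signal then appeared on IAA alone. At 0 h it stood at 6.27, 6.43 and 6.28 on IAA, against 6.30, 6.33 and 6.19 on control medium. At 0.5 h it had 6.29, 6.41 and 6.32 on IAA, against 6.39, 6.21 and 6.34 on control medium. At 1 h it had 6.14, 6.50 and 6.12 on IAA, against 6.45, 6.88 and 6.22 on control medium. The media did not separate at these times, and the highest early value was on a control array. At 4 h the values were 6.65, 6.24 and 6.49 on IAA, against 6.26, 6.32 and 6.44 on control medium. The groups overlapped at 0, 0.5, 1 and 4 h. At 8 h EXPB2 stood at 9.29, 9.04 and 8.84 on IAA, against 6.33, 6.31 and 6.46 on control medium. All IAA arrays were now at least 2.38 above all control arrays.

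At 12 h EXPB2 had 11.1, 11.3 and 10.5 on IAA, against 6.02, 6.28 and 6.69 on control medium. At 24 h it had 11.4, 9.77 and 11.6, against 6.15, 6.61 and 6.26. The 24 h IAA array of replicate 2 was below the other two, and the standard deviation of this group was 1.01. Over all probe sets, that array was among the 4 of 48 that lay farthest from their group means. The same array was also the lowest of its group for EXPB1, at 7.34.

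The difference of EXPB2, IAA minus control, was 0.03 at 0.5 h, -0.26 at 1 h, -0.18 at 2 h and 0.12 at 4 h, then 2.69 at 8 h, 4.64 at 12 h and 4.59 at 24 h (log2, each ± 0.251). That standard error is shared by all 16 groups. The IAA group at 24 h had a standard deviation of 1.01, so the shared value understates the spread there. The folds at the last 3 times were 6.47, 25.0 and 24.0, and they rest on control means of 6.33 to 6.36 that are not shown to be clear of background. EXPB2 ranked 59th, 10th and 8th among the rises of 22746 probe sets at these times. Without IAA 24 h replicate 2, the 24 h difference was 5.16, and without IAA 24 h replicate 3 it was 4.23. For EXPB2 too, IAA against control chose the gene and no test is given. The share of probe sets higher on IAA without overlap was 2.06% at 0 h, 6.65% at 0.5 h, 6.45% at 1 h, 10.6% at 2 h, 17.1% at 4 h, 18.4% at 8 h, 17.3% at 12 h and 9.61% at 24 h. Of all probe sets, 1015 (4.46%) were higher on IAA without overlap at 8, 12 and 24 h.

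At 2 h the EXPB2 groups also did not overlap, in the other direction. The values were 6.27, 6.21 and 6.07 on IAA, against 6.41, 6.39 and 6.30 on control medium. The nearest arrays were 0.0272 apart, within the range of signals near the lower quartile, and 9.48% of all probe sets were lower on IAA without overlap at that time.

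On IAA medium itself, the step of EXPB1 between 0 and 0.5 h was -1.78 ± 0.319, and no later step between successive times was larger than 0.572 in size. EXPB2 moved by 2.60 ± 0.251 between 4 and 8 h and by 1.92 ± 0.251 between 8 and 12 h. Its step between 12 and 24 h was -0.05 ± 0.251 with the shared standard error, so the 12 and 24 h levels were not told apart. Over the interval between 8 and 12 h the step of EXPB1 was 0.57 ± 0.319, and its steps were 0.01 between 2 and 4 h and -0.02 between 4 and 8 h, so no single time of lowest level was told apart.

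**Figure D2:**
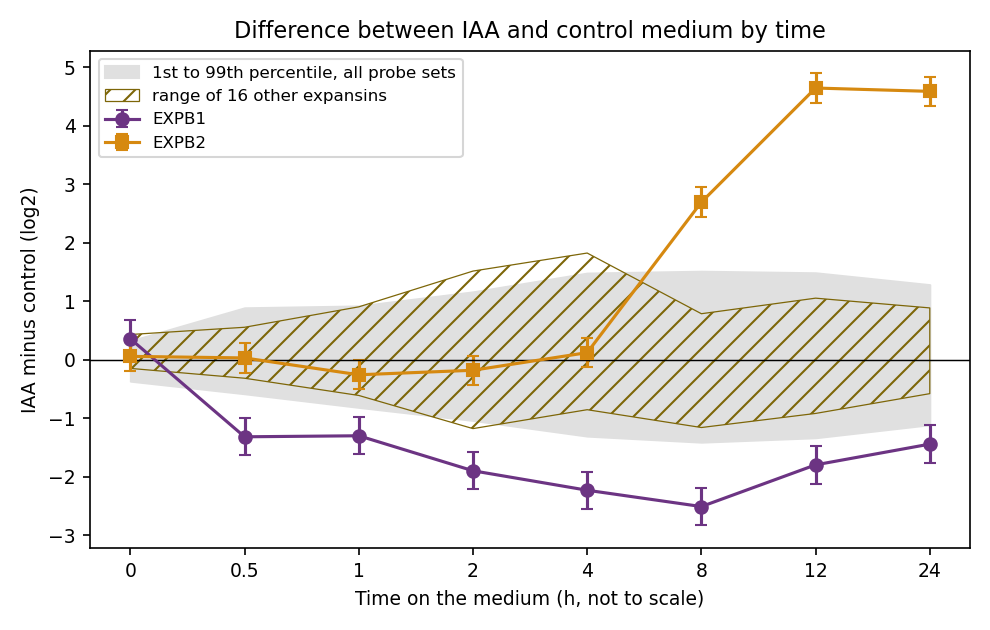
Difference between IAA and control medium (log2) for EXPB1 (circles) and EXPB2 (squares) by time, with standard errors of the fit (n = 3 arrays per group). The grey area spans the 1st to 99th percentile of all 22746 probe sets and the hatched area the range of 16 other measured expansins. EXPB1 lies below both areas from 0.5 to 24 h, and EXPB2 lies above both at 8, 12 and 24 h.

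The order of the levels also set the genes apart. For EXPB1, the 9 highest group means were those of the 8 control groups and of IAA at 0 h, between 8.63 and 9.49, and the 7 lowest were those of IAA from 0.5 h on, between 6.98 and 7.95. All 15 pairs of neighbours in this order overlapped in their arrays, including control 1 h and IAA 24 h, whose means were 0.672 apart. For EXPB2, IAA at 12 and 24 h overlapped at the top, IAA at 8 h overlapped with neither neighbour, and the 13 other groups had means of 6.19 to 6.51 with each neighbour overlapping the next. The Pearson correlation between the group means of the genes was -0.37 over the 16 groups and 0.0066 over the 8 IAA groups. This is a description, since both genes were read on the same arrays and were picked for opposite directions.

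Levels on control medium alone were not used to pick the genes, although the same control arrays enter the comparison above. EXPB1 ran from 8.63 ± 0.423 at 1 h to 9.49 ± 0.130 at 8 h (SD, n = 3), a range of 0.869 against 2.29 on IAA medium. EXPB2 ran from 6.27 ± 0.0765 at 0 h to 6.51 ± 0.335 at 1 h, a range of 0.242 on control medium against 4.79 on IAA medium. In limma's F test of the 7 later times against 0 h, neither gene passed (adjusted p = 1 for both, unadjusted p = 0.0837 for EXPB1 and 0.991 for EXPB2). The background of this test was 0% of 22746 probe sets called with limma, with 480 at an unadjusted p under 0.05. These 480 are fewer than the share of 0.05 that chance alone would give, so the test was stricter than its p-values state. Not passing therefore does not show that either gene was flat on control medium. The largest control difference of EXPB1 was 0.58 ± 0.319 at 8 h against 0 h (limma unadjusted p = 0.0786, adjusted p = 1.00).

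The spread of EXPB1 between replicates on control medium differed from time to time. Its standard deviations there were 0.592 at 0 h, 0.506 at 0.5 h, 0.423 at 1 h, 0.675 at 2 h, 0.326 at 4 h, 0.130 at 8 h, 0.547 at 12 h and 0.192 at 24 h. Replicate 3 was the lowest control array at 0, 0.5 and 2 h and the highest at 4, 8 and 12 h. Taken by replicate number, the 0.5 h difference of EXPB1 was -2.16, -1.22 and -0.58, so all were negative but unequal. At 8 h the same differences were -2.19, -2.94 and -2.41. Over the 7 times they lay between -2.94 and -0.51 for EXPB1.

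Other members of the family were examined from a list of 34 expansins and expansin-like genes besides EXPB1 and EXPB2. The gene table named a probe set for 16 of them. In limma's F test over the 7 times after 0 h, 6 of the 16 passed, beside a background of 28.3% of all probe sets. Of the 6, 3 had their largest change upward (background 15.8%) and 3 downward (background 12.4%), and 10 did not pass. The median difference of the 16 lay between -0.09 at 2 h and 0.22 at 4 h, while that of all probe sets lay between -0.02 and 0.01. At 8 h the 16 spanned -1.16 to 0.79, against -2.51 for EXPB1 and 2.69 for EXPB2, and at 12 h -0.92 to 1.05, against -1.80 and 4.64.

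Time by time, limma called 0.928% of all probe sets higher on IAA at 0.5 h, 1.34% at 1 h, 5.44% at 2 h, 9.73% at 4 h, 8.45% at 8 h, 5.99% at 12 h and 3.79% at 24 h. It called 0.251% lower at 0.5 h, 0.607% at 1 h, 3.76% at 2 h, 7.1% at 4 h, 6.43% at 8 h, 4.93% at 12 h and 3.21% at 24 h.

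Among the beta-expansins, EXPB3 and EXPB5 could be named as well, and EXPB4 and EXPB6 could not. EXPB3 had log2 values of 10.02, 9.93 and 9.02 on IAA at 8 h, against 10.7, 10.9 and 10.9 on control medium. It was 2.24-fold lower at that time (-1.16 ± 0.310, limma adjusted p = 0.00793), and its difference at 12 h was -0.01. The F test call of EXPB3 was slight (limma adjusted p = 0.0463) and was lost with any replicate number left out (0.0836 to 0.232) and with centring on the array median (0.0664). The 8 h call was lost without IAA 8 h replicate 3 (0.0965). EXPB5 averaged 6.66 over all arrays and did not pass (limma adjusted p = 0.375, largest difference 0.35 ± 0.134 at 0.5 h).

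Of 4 expansin-like genes, all were measured and 2 passed. EXLA2 was lower, at 6.75, 6.50 and 6.98 on IAA at 8 h, against 7.78, 7.76 and 7.73 on control medium (-1.01 ± 0.224, limma adjusted p = 0.00127, and 0.0542 without replicate 1). Its call held at 2, 4, 8 and 12 h. EXLB1 was higher, at 9.54, 9.28 and 9.67 on IAA at 12 h, against 8.62, 8.71 and 8.04 on control medium (1.04 ± 0.287, limma adjusted p = 0.0131). At 0 h the differences were already 0.42 for EXLB1 and 0.39 for EXLA2, and neither was called. That 12 h call of EXLB1 was lost without control 12 h replicate 3 (0.104) or IAA 12 h replicate 3 (0.0653), and its F test call (0.00132) was lost without replicate 1 (0.0752) or 3 (0.208). EXLA1 and EXLA3 did not pass the F test (limma adjusted p = 0.668 and 0.701).

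Of 10 named alpha-expansins, EXPA4, EXPA7 and EXPA8 passed. EXPA4 stood at 12.8, 12.9 and 13.3 on IAA at 4 h, against 11.4, 11.7 and 10.4 on control medium. It was 3.54-fold higher (1.82 ± 0.317, limma adjusted p = 5.73e-05), and by 24 h its difference was 0.17. EXPA8 stood at 7.09, 6.78 and 7.09 on IAA at 8 h, against 7.82, 7.75 and 8.29 on control medium (-0.97 ± 0.194, limma adjusted p = 0.000395). EXPA8 was lower at 2, 4, 8 and 12 h with differences of -0.86 to -0.97. EXPA9 did not pass the F test (limma adjusted p = 0.0864) but was called higher at 12 h (0.91, limma adjusted p = 0.0348). That 12 h call was lost without replicate 1 (0.245) or 3 (0.109). EXPA9 passed the F test without IAA 24 h replicate 2 (limma adjusted p = 0.00039). Without the 4 farthest arrays, EXPA9 (0.000187) and EXPA20 (0.0113) passed it. EXPA7, an expansin of root hair cells, passed the F test (limma adjusted p = 0.0225, 0.289 without replicate 2 and 0.0744 without the 4 farthest arrays), and was higher at 4 h (0.89, limma adjusted p = 0.0473). EXPA18, also of root hair cells, did not pass (limma adjusted p = 0.512). These were the only genes named of 18 on a root hair list, and 0 of 11 plasma membrane proton pumps, which acidify the wall, could be named. EXPA7 ran from 8.49 to 10.2 on IAA and from 8.67 to 9.37 on control medium in its group means. Its part in the values of EXPB1 and EXPB2 was not tested.

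**Figure D3:**
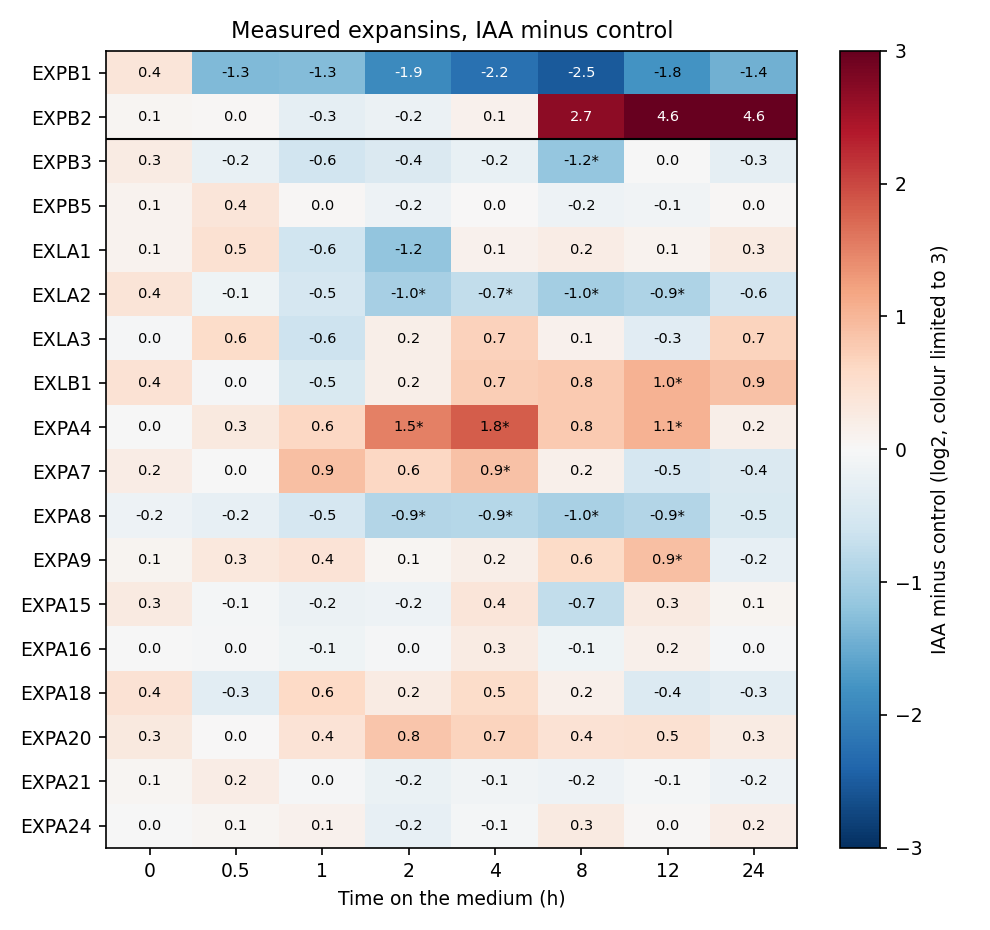
Difference between IAA and control medium (log2, printed in each cell) for 18 measured expansins by time, red for higher and blue for lower on IAA, with the colour limited to 3. EXPB1 and EXPB2 stand above the line and carry no test, and stars in the other rows mark a limma adjusted p under 0.05 at that time. EXPB1 is blue from 0.5 h, EXPB2 is red from 8 h, and EXPA4 is the deepest red among the others, at 4 h.

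The profile of each gene was set against those of 1556 other genes whose group means spanned at least 1 on the log2 scale, by the Pearson correlation over the 16 groups. The 5 most like EXPB1 were AT2G34610 (0.989), AT2G36430 (0.988), AT4G25250 (0.987), AT5G58784 (0.981) and hemb2 (0.979). AT4G25250 changed more than EXPB1, with differences of -2.09 at 0.5 h and -3.68 ± 0.417 at 4 h, and AT2G36430 less, with -0.66 at 0.5 h and -0.97 at 8 h. All 5 had their largest difference at 4 h. At 24 h the differences were -1.18 for AT2G34610, -0.73 for AT2G36430, -2.37 for AT4G25250, -1.01 for AT5G58784 and -1.20 for hemb2, and the last of these was within its standard error of 0.263 of the 4 h value, -1.37. The 3 genes that ran most opposite to EXPB1 were GH3.3 (-0.989), AT1G60010 (-0.981) and AT1G33790 (-0.980). At 2 h on control medium AT4G25250 had 9.87, 9.73 and 8.46 in replicates 1, 2 and 3, so its array of replicate 3 was the lowest, as for EXPB1.

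The 5 genes most like EXPB2 were AT3G22060 (0.992), PAP20 (0.989), AT4G13210 (0.988), AT2G25200 (0.986) and AT3G28530 (0.985). PAP20 is a purple acid phosphatase. AT3G22060 differed by 0.03 at 4 h, 2.59 at 8 h, 3.85 at 12 h and 3.85 ± 0.284 at 24 h. On IAA at 24 h AT3G22060 stood at 11.4, 9.53 and 11.7 in replicates 1, 2 and 3, so that its array of replicate 2 was low, as for EXPB2. PAP20 stood there at 9.33, 9.70 and 9.53, so its array of replicate 2 was the highest. Deviations from the group means over the 48 arrays were correlated with those of EXPB2 to unlike degrees. The values were 0.47 for AT3G22060, 0.62 for AT4G13210 and 0.40 for AT2G25200, but -0.12 for PAP20 and -0.18 for AT3G28530. PAP20 had already moved by 0.61 at 2 h and reached 3.80 ± 0.168 at 24 h. AT2G25200 and AT3G28530 reached smaller differences, 2.01 ± 0.322 at 12 h and 1.94 ± 0.188 at 24 h. The probe set of AT3G28530 is of a type that can also bind related transcripts. The 3 genes most opposite to EXPB2 were AT5G51890 (-0.962), AT5G66390 (-0.953) and AT3G22570 (-0.949). AT5G66390, listed as peroxidase 72, had differences of -1.77, -1.80 and -1.77 at 8, 12 and 24 h. These lists depend on the measure of likeness. By Spearman's rank correlation, 2 of the 5 genes most like EXPB1 and 2 of the 3 most opposite were kept, but 0 of the 5 most like EXPB2 and 0 of the 3 most opposite. By Pearson correlation over the 48 arrays, 1 of the 5 genes most like EXPB1 and 3 of the 5 most like EXPB2 were kept, and 2 of the 3 most opposite for each.

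**Figure D4:**
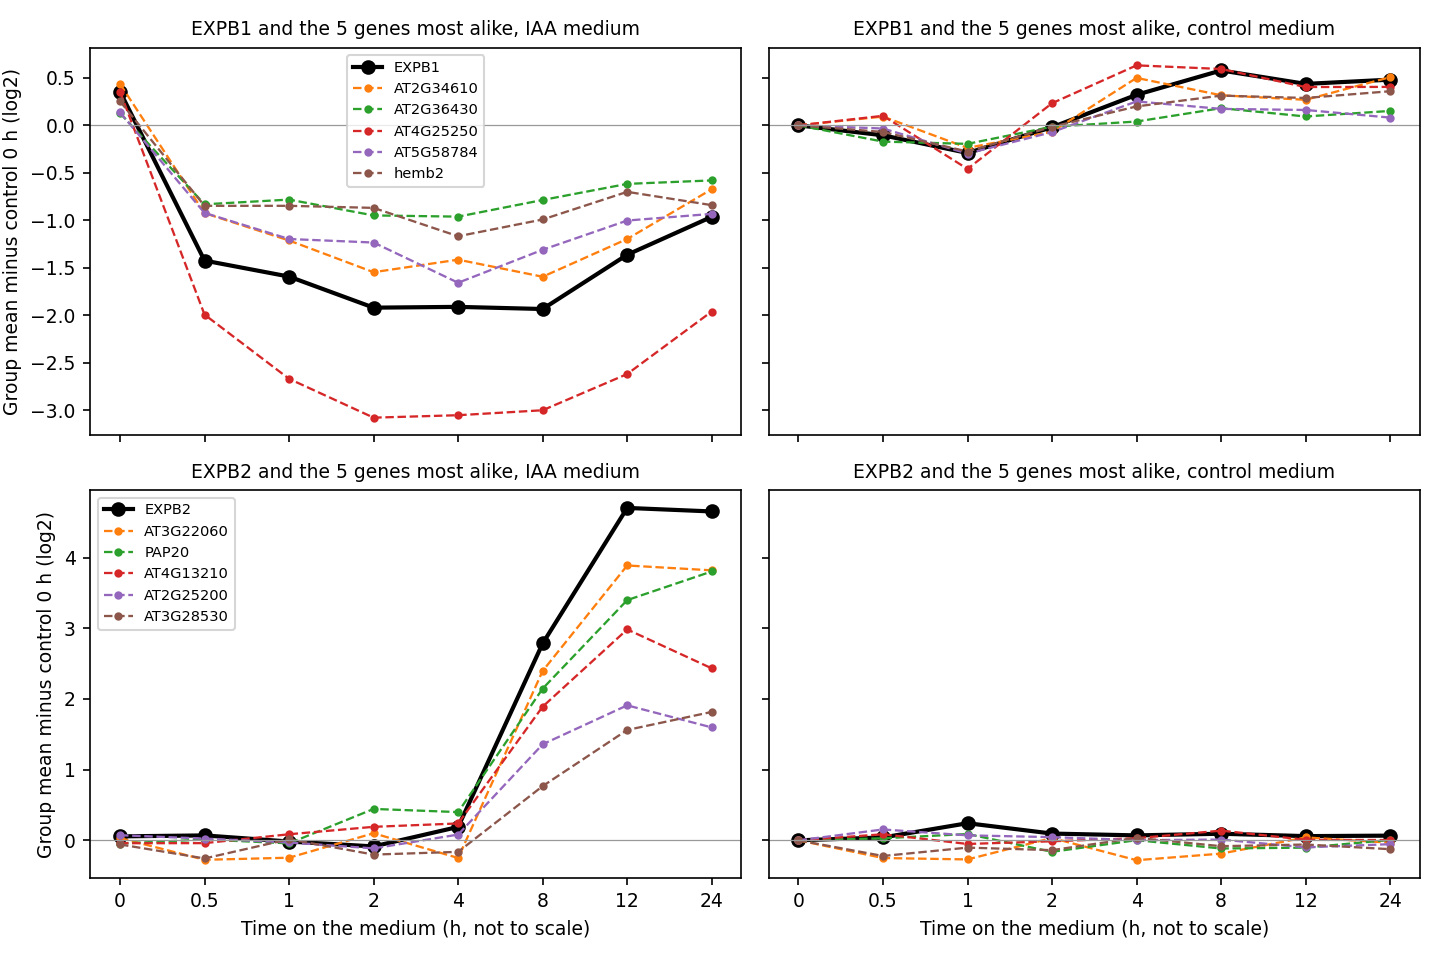
Group means minus the control mean at 0 h (log2) for EXPB1 (upper row, black) and EXPB2 (lower row, black) with the 5 genes of the highest Pearson correlation to each, on IAA medium (left) and control medium (right), by time. On IAA the upper genes are lower from 0.5 h and the lower genes rise between 4 and 12 h. On control medium the lines have no such steps.

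The timing was also described by limits chosen after the values were seen. The counts depend on those limits and do not measure how rare the timing is. Being within 0.5 on the log2 scale at 0.5, 1, 2 and 4 h and at least 2 higher at 8, 12 and 24 h held for 3 probe sets, of which 2 name a gene, EXPB2 and AT3G22060. The mirror image, at least 2 lower at the last 3 times, held for 0. PAP20 missed the limits for EXPB2 only by its 0.61 at 2 h, and AT4G13210 only by its 1.75 at 8 h. Being at least 1 lower at all 7 times held for 8 probe sets, of which 7 name a gene, among them EXPB1, AT4G25250 and AT2G41730. Being at least 1 higher at all 7 times held for 37.

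The genes lie apart in the genome, EXPB1 on chromosome 2 and EXPB2 on chromosome 1 (RefSeq gene table of TAIR10.1). The neighbours of EXPB1 are AT2G20740 and AT2G20760, and neither passed the F test (limma adjusted p = 0.162 and 0.523). Their largest differences were -0.45 ± 0.167 at 4 h and -0.23 ± 0.112 at 8 h, against -2.23 and -2.51 for EXPB1. AT2G20740 passed the F test without IAA 2 h replicate 3 (limma adjusted p = 0.0323), without replicate 3 (0.00448) and without the 4 farthest arrays (0.0306). Its 4 h difference was near the threshold (limma adjusted p = 0.0564). It was called with quantile normalization (0.0345), the filter on low values (0.0404) and the replicate block (0.0242). With single arrays left out, the 4 h call changed in 8 of 48 runs. EXPB2 lies between CYP702A1, a cytochrome P450 gene, and the beta-expansin EXPB6, and neither has a probe set that names it alone. Whether transcripts of EXPB6 also bind to the EXPB2 probe set was not tested.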

How the data were processed

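Per the labels' protocols, total RNA of roots was made into biotin-labelled cRNA and hybridised to 1 Affymetrix array per sample. The authors deposited log2 intensities for 22810 probe sets on 48 arrays; the scale was read from the values, and the summary and normalization methods are not given in the sources used here. The 64 control probe sets were left out and 22746 were kept without a filter. A gene table named 1 gene for 13513 of them (59.4%), several for 503 and did not list 8730; symbols come from the RefSeq table of TAIR10.1. Where several probe sets name a gene, the brightest on average stands for it.

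One mean per group was fitted to all 48 arrays with limma 3.58.1 (lmFit, eBayes, R 4.3.3; 32 residual degrees of freedom). P-values are two-sided with Benjamini-Hochberg adjustment across the 22746 probe sets and a threshold of 0.05. The fit was tested on simulated data. Their noise was independent between arrays, so they do not cover the likeness between arrays of one replicate number given below. The genes, lists and tests were chosen with earlier results of these data known. Named genes are EXPB1 and EXPB2, GH3.3 and LBD29 (checks that IAA acted), other expansins past the F test, all beta-expansins and expansin-like genes, the 5 genes most like and 3 most opposite to each, and genomic neighbours. Replicate numbers were not used as pairs, since the labels name nothing that a number shares. However, of 24 pairs that match an IAA array to the control array with its number at one time, 20 had deviations correlated over 0.1. These correlations ran from -0.18 to 0.48. The main fit and its p-values take no account of this likeness. Alternatives were other normalizations, removal of dim probe sets, a replicate block, a variance trend, other baselines and arrays left out.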

Additional observations from a re-analysis of the deposited data

Results flagged for a closer look

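Several measured expansins had all 3 IAA arrays above all 3 control arrays at one time and below them at another, and these differences between times were not tested. Such separation was common among all probe sets. It was seen upward in 6.65% at 0.5 h, 17.3% at 12 h and 9.61% at 24 h, and downward in 9.48% at 2 h and 15.3% at 12 h. The share of all probe sets that separated in both directions was not counted. EXPB2 was higher at 12 h (4.64, log2) and lower at 2 h (-0.18), and the comparison of IAA with control medium is the one that chose it. EXPA21 differed by 0.23 at 0.5 h and -0.20 at 2 h, and EXPB5 by 0.35 at 0.5 h and -0.11 at 12 h. EXLA1 differed by 0.28 at 24 h and -1.18 at 2 h. EXPA21, EXPB5 and EXLA1 did not pass the F test, and none was called at the times given. Their limma adjusted p were 0.659 and 0.391 for EXPA21, 0.321 and 0.697 for EXPB5, and 0.866 and 0.215 for EXLA1. No group had enough arrays for a search for single outlying arrays.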

How the results depend on the processing

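The mean difference of IAA and control medium over the 7 times was -1.79 for EXPB1 and 1.66 for EXPB2 and kept its direction under every alternative run, with -2.14 and 1.61 after the 0 h difference was subtracted. Both genes were chosen for this direction on the same arrays, so its being kept is a description and no further evidence. For EXPB2 the mean joins differences of -0.26 to 0.12 at 0.5 to 4 h with 2.69 to 4.64 at 8 to 24 h. Leaving out replicate numbers gave means of -1.89 to -1.65 for EXPB1 and 1.56 to 1.74 for EXPB2. With the replicate number as a block the means were the same (-1.79 and 1.66), 8287 probe sets passed the F test of IAA against control in place of 6429, and 7 other expansins passed in place of 6, EXPA20 being the added one (limma adjusted p = 7.1e-05). The count of all probe sets past the F test was 1597 with a fold of at least 2 in addition, and between 2741 and 6810 with a replicate number or 1 array left out. Other expansins past the F test numbered 4 to 7 over the alternatives. The control time course had 0 calls, 2 without control 1 h replicate 1 and 1 without control 12 h replicate 2, neither of them EXPB1 or EXPB2 (single arrays left out, 0 to 2). With the 4 most deviant arrays left out, a choice made after seeing the data, the 24 h difference of EXPB2 was 5.16. The filter on low values left out EXPB2, and no second probe set names either gene. Proton pumps could not be tested, since none was named.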
